A study of Solanum dulcamara with 18 samples.

Results

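In bittersweet nightshade (Solanum dulcamara), a wild relative of tomato and potato, 83 assembled leaf transcripts (contigs) were higher after caterpillar feeding in control and flooded plants but not, or hardly, in drought plants. These 83 members were chosen by their measured levels, out of 24158 contigs. The level was the group mean of log2(CPM + 1), where CPM is the read count of a contig per 1000000 counted reads of its library. A member had a mean of at least 2 CPM over all 18 libraries, a herbivory difference (infested minus uninfested) of at least 1 in control plants and at least 1 in flooded plants, and a difference under 0.4 in drought plants. A difference of 1 on this scale is a doubling of CPM + 1.

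All plants were greenhouse-grown S. dulcamara and all RNA came from leaf. They received control watering, drought or flooding for 5 days, and each water treatment was kept up for 2 more days in which plants either had no insects or were fed on for 48 h by Spodoptera exigua, the beet armyworm, a generalist caterpillar. The resulting 6 groups had 3 libraries each, described by the series as biological replicates. Genotype, plant age, the number of plants behind a library and the meaning of the replicate numbers are not stated. The series asks how drought and flooding alter the transcriptional response to this herbivore.

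In plants of this family, chewing caterpillars trigger jasmonate signalling, which raises defence transcripts such as those of protease inhibitors and oxidative enzymes, both in the bitten leaf and away from it. Drought acts largely through abscisic acid, and many leaf transcripts answer to that hormone as well as to wounding. The deposited tables identify contigs by assembly ID and length only. None of the IDs (0 of 24158) was found in the reference gene table, so no function, gene name or sequence is given for a member, and the leaf identity of the samples could not be checked against marker genes.

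Libraries held 6717218 to 16056241 counted reads, so that the minimum of 2 CPM stood for 13.4 reads in the smallest and 32.1 in the largest library. All 83 members passed the low-count filter of the tests, and 3 of them had a library with 0 reads. Some libraries stood apart for these members. Uninfested drought replicate 1 was the highest of its 3 libraries for 55 of the 83 members. Of the libraries numbered 3, the uninfested control and uninfested flooding ones were the highest of their group for 58 and 55 members, while the infested control and infested flooding ones were the lowest for 42 and 45. Infested flooding replicate 2 was the highest for 56 members, while uninfested flooding replicate 2 and uninfested drought replicate 3 were the lowest for 56 and 54. Without infested flooding replicate 2, 19 members fell under the flooding limit of the rule. Leaf was sequenced in bulk, so a lower level could come from fewer cells of a type or from less RNA per cell, and these cannot be told apart.

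The herbivory differences that chose the members are given here as a description. The median over members was 1.36 in control plants (1.01 to 2.16), 0.17 in drought plants (−0.71 to 0.40) and 1.49 in flooded plants (1.02 to 3.55). The 83 members were part of 523 contigs with a difference of at least 1 in both control and flooded plants. In 219 of these the drought difference lay between 0.4 and 1, and in 221 it was at least 1, so no gap separated the members from the other contigs. Among contigs close to the limits, comp6449_c0_seq1 was inside with a drought difference of 0.40 (0.398 before rounding) and comp10792_c0_seq1 outside with 0.411. At the control limit, comp2035_c0_seq1 was inside with 1.01 and comp10235_c0_seq1 outside with 0.997. At the flooding limit, comp4781_c0_seq1 was inside with 1.02 and comp2167_c0_seq1, at a mean of 556 CPM, outside with 0.997. At the level limit, comp28723_c0_seq1 was inside with a mean of 2.04 CPM and comp3548_c0_seq1 outside with 1.69.

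**Figure D1:**
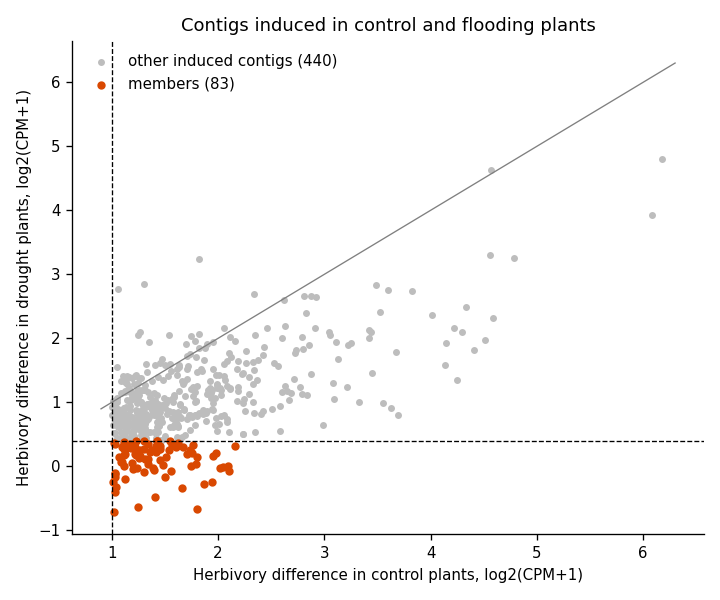
Herbivory difference in drought plants (y, log2(CPM + 1)) against that in control plants (x) for the 523 contigs with a difference of at least 1 in control and flooded plants, one point per contig, with the limits dashed and equal differences on the solid line. The 83 members (orange) lie below 0.4 on the y axis, directly under the other 440 (grey), with no gap between them.

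In the edgeR quasi-likelihood test with Benjamini-Hochberg adjustment, 49 members were called higher with herbivory in control plants, where 6.61% of all 20170 tested contigs were. In flooded plants 60 members were called (background 9.58%) and in drought plants 0 (background 2.87%). At an unadjusted p under 0.05 in drought plants, comp16302_c0_seq1 was higher and comp7122_c0_seq1 lower with herbivory (log2 fold change 0.44 and −2.16, edgeR adjusted p = 0.231 and 0.339). The rule used these contrasts, so nothing is read from the counts. The difference between herbivory responses, also used by the rule, was called for few single members or none. For drought against control, edgeR called 0 members (0% of all contigs), and DESeq2 called 1 member (0.144% of all contigs). An unadjusted edgeR p under 0.05 was found for 51 members, beside 1301 of all 20170 tested contigs. For drought against flooding, edgeR called 0 members (0.0198%), and DESeq2 called 14 (0.724%). Here 66 members had an unadjusted edgeR p under 0.05, beside 1956 of the 20170 contigs. Since the rule used these differences, nothing is read from these counts either.

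In most members the small difference in drought plants went with a high level in the drought plants kept without insects. Uninfested drought plants lay above uninfested control plants in 78 of 83 members, with a median difference of 1.497 in log2(CPM + 1) and a difference of at least 1 in 64 members. The median of all tested contigs on this scale was 0.12. In 66 members all 3 uninfested drought libraries were above all 3 uninfested control libraries (background 25.9%), and in 0 members were all 3 below (background 12.9%). Set against infested control plants, uninfested drought plants differed by a median of 0.15 and were higher in 53 members, but without uninfested drought replicate 1 the median was −0.21 and 34 members were higher. Infested drought minus infested control had a median of 0.25 and went both ways, from −1.93 to 1.94. It lay within 1 of 0 in 65 members and at 1 or more in 13, and all 3 infested drought libraries were above the control ones in 14 members (background 17.5%) and all below in 9 (background 10.6%). A high uninfested drought level favours choice by the rule, so these differences carry no test.

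Library by library, each member was then measured from its mean in uninfested control plants. The same 18 libraries chose the members, so the values are a description and their order is largely set by the rule. The medians over members in the 3 uninfested drought libraries were 1.97, 1.33 and 1.09, and in the infested drought libraries 1.68, 1.37 and 1.90. The infested control libraries stood at 1.43, 1.47 and 1.17, and the infested flooding libraries at 1.55, 1.98 and 1.23. Uninfested flooding libraries had medians of −0.06, −0.27 and 0.50, over members that went both ways: the group difference from control ran from −2.47 to 2.49 and lay within 1 of 0 in 59 members. All 3 uninfested drought libraries thus stood above all 6 uninfested libraries of the other water treatments and, at 1.09 to 1.97, about level with the infested libraries of control and flooded plants, at 1.17 to 1.98. Summed over members, transcripts took 0.886%, 0.661% and 0.540% of reads in uninfested drought libraries, against 0.180%, 0.182% and 0.277% in uninfested control libraries and 0.575%, 0.6004% and 0.606% in infested control libraries. In the 221 contigs induced in all 3 water treatments, uninfested drought plants differed from infested control plants by a median of −1.37 and were higher in 7 contigs. These contigs were chosen with a drought difference of at least 1, which favours a low uninfested drought level. Even so, uninfested drought was above uninfested control in 166 of the 221, by a median of 0.49. In the 219 with an intermediate drought difference it was above in 184, by a median of 0.65. A raised uninfested drought level was thus not limited to members.

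**Figure D2:**
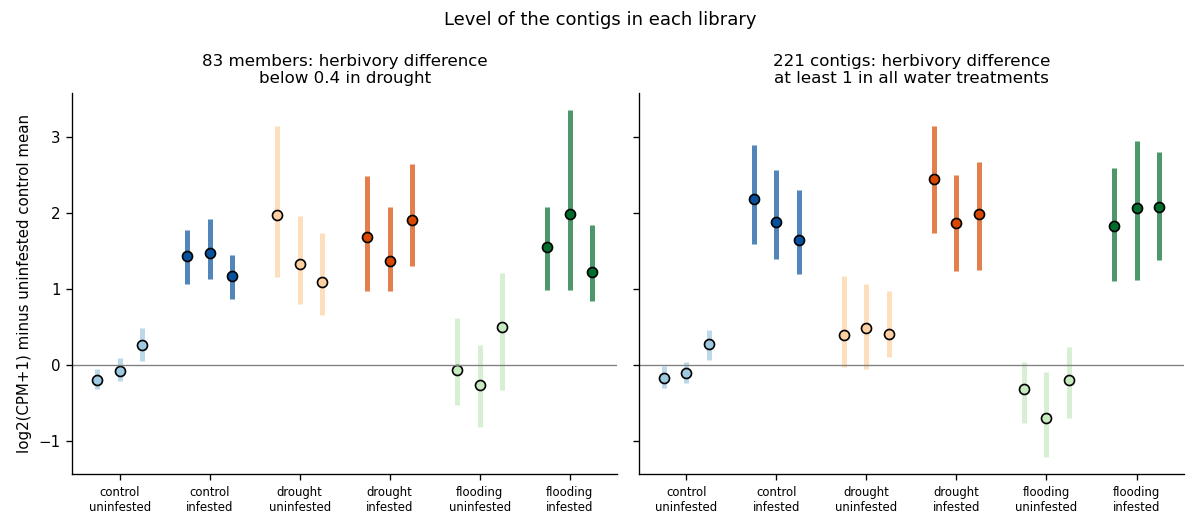
Level of contigs in each library, as log2(CPM + 1) minus the mean of uninfested control libraries (y), by group (x), for the 83 members (left) and the 221 contigs induced in all water treatments (right); points are medians over contigs and bars run from the lower to the upper quartile. For members the uninfested drought libraries stand at 1.97, 1.33 and 1.09, about level with infested libraries, whereas uninfested flooding libraries have medians of −0.06, −0.27 and 0.50 with quartiles on both sides of 0.

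The members were divided by where uninfested drought plants stood on the way from the uninfested control level to the infested control level, with limits of 0.25 and 0.75 of that distance set after the values were seen. By this division 62 members stood near or above the infested control level, 12 between, and 9 near the uninfested control level. Without uninfested drought replicate 1 the numbers were 48, 25 and 10, and the median of uninfested drought minus uninfested control was 1.197. Without that library the members' median herbivory difference in drought plants was 0.38 instead of 0.17, 40 members were at or over the limit of 0.4 and 6 were at 1 or more. Without the 6 libraries numbered 3, an alternative added after the data were seen, the division was 63, 13 and 7 and the median herbivory difference in drought plants was −0.20.

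The member with the highest mean CPM, a value not corrected for contig length, was comp16390_c0_seq1 (1532 bases), and it showed the common pattern. Uninfested control libraries held 174, 179.8 and 386 CPM, and infested control libraries 1106, 632 and 1388. Uninfested drought libraries held 1505, 1530 and 842 CPM and infested drought libraries 638, 1226 and 2136. In flooded plants the values were 183, 93.6 and 142 CPM without insects and 1056, 562 and 758 with them. All 3 uninfested drought libraries were above all uninfested control and flooding libraries and overlapped the infested control ones, and the means in drought plants were 1293 ± 390.0 CPM without and 1333 ± 755 CPM with insects (SD, n = 3 each). comp15905_c0_seq1 (698 bases) had the same profile, with 73.0, 74.7 and 126 CPM in uninfested control, 332, 248 and 486 in infested control, 626, 686 and 364 in uninfested drought and 241, 461 and 840.0 in infested drought libraries.

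Other members with high CPM differed in how far the libraries of a group were spread. comp1295_c0_seq1 (637 bases) stood at 140.1, 158 and 183 CPM in uninfested control libraries and 346, 368 and 365 in infested ones. In drought libraries it stood at 486, 426 and 340.3 CPM without insects and 452, 536 and 598 with them. Uninfested drought and infested control libraries overlapped, and every infested drought library was above every infested control library. comp299_c0_seq1 (1628 bases) had 126 ± 28.8 CPM in uninfested control plants, 285 ± 118 in infested control plants, 340.2 ± 68.0 in uninfested drought plants and 384 ± 56.5 in infested drought plants (SD, n = 3 each). comp1254_c0_seq1 (1097 bases) stood at 287, 458 and 738 CPM in uninfested drought libraries, overlapping both 193, 148 and 339.7 in uninfested and 421, 696 and 588 in infested control libraries.

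For several members the high mean in uninfested drought plants came largely from replicate 1. comp7122_c0_seq1 (918 bases) held 123, 3.91 and 2.09 CPM in the uninfested drought libraries, against 0.510, 0.810 and 0.584 in uninfested control and 8.76, 10.0 and 8.86 in infested drought libraries. The other two drought libraries still lay above all uninfested control libraries, but under every infested drought library. comp31198_c0_seq1 (827 bases), at 29.5, 2.39 and 0.999 CPM, and comp11297_c0_seq1 (668 bases), at 24.6, 2.87 and 1.54 CPM, had the same single high library. comp4886_c0_seq1 (1169 bases) stood at 701, 196 and 116 CPM and comp15076_c0_seq1 (1535 bases) at 355, 107 and 70.1 CPM, with replicate 3 inside the uninfested control range of 81.1, 89.1 and 158 and 48.5, 48.1 and 93.6 CPM, respectively. comp524_c0_seq1 (960 bases) held 363, 187 and 74.2 CPM in replicates 1, 2 and 3. comp130_c0_seq1 (1649 bases), at 170.4, 49.8 and 30.1 CPM, and comp19759_c0_seq1 (1018 bases), at 48.1, 11.7 and 7.99 CPM, were also highest in replicate 1, while their mean in uninfested control plants was 4.16 ± 0.616 and 0.850 ± 0.768 CPM (SD, n = 3). For both, all 3 uninfested drought libraries were above the uninfested control ones.

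**Figure D3:**
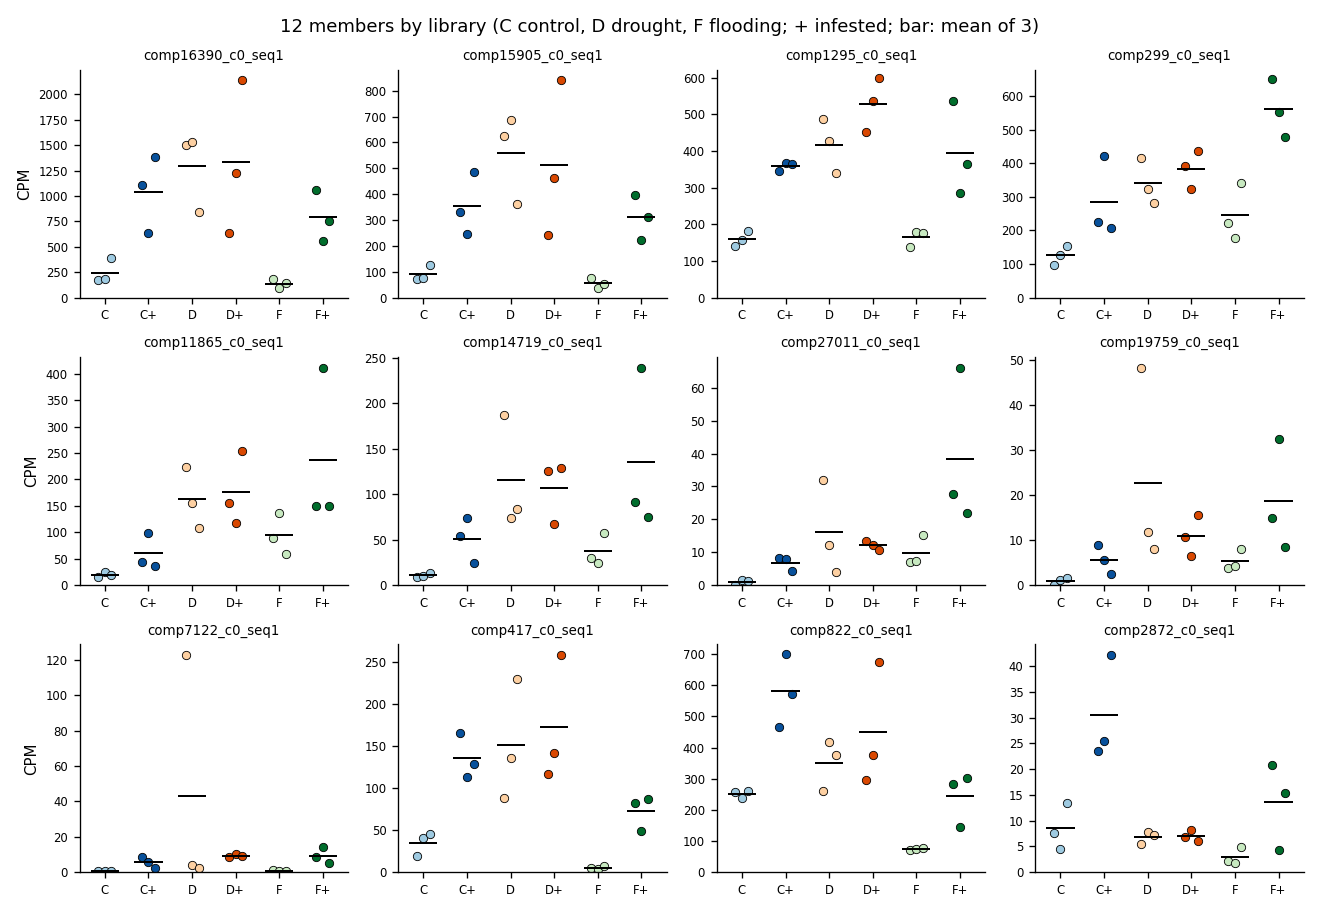
CPM (y) in each of the 18 libraries for 12 members, by group (C control, D drought, F flooding, + infested), with points for libraries and bars for the mean of 3. In comp16390_c0_seq1 and comp1295_c0_seq1 all uninfested drought libraries are above all uninfested control libraries, in comp7122_c0_seq1 a single uninfested drought library stands far above the rest, and in comp2872_c0_seq1 the drought libraries stay low with and without insects.

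The 9 members near the uninfested control level had a low level in uninfested drought plants, the value by which they were divided off. These were comp1005_c0_seq1, comp15062_c0_seq1, comp17446_c0_seq1, comp19785_c0_seq1, comp24281_c0_seq1, comp2872_c0_seq1, comp5298_c0_seq1, comp5334_c0_seq1 and comp6449_c0_seq1. Infested drought plants were also low in some of them but not in all. In comp6449_c0_seq1 every infested drought library (1.51, 3.72 and 1.56 CPM) was above every uninfested control library (0.638, 1.43 and 0.844 CPM), and so it was in comp17446_c0_seq1 (17.8, 17.0 and 12.0 against 9.31, 8.60 and 11.8 CPM). In comp2872_c0_seq1 (535 bases), control libraries went from 7.53, 4.48 and 13.4 CPM without to 23.5, 25.5 and 42.2 with insects, while drought libraries held 5.51, 7.74 and 7.26 and 6.88, 8.24 and 6.04. The infested drought libraries lay inside the uninfested control range and below all infested control libraries. comp24281_c0_seq1 (966 bases) went from 8.04, 8.72 and 10.1 to 29.1, 21.4 and 26.5 CPM in control plants and from 7.04, 5.34 and 12.5 to 8.10, 8.80 and 13.8 in drought plants, where the groups overlapped. comp5298_c0_seq1 (1232 bases) stood at 7.14, 6.17 and 2.53 and 13.7, 11.8 and 16.6 CPM in control libraries and at 6.50, 3.11 and 1.18 and 4.14, 2.82 and 6.13 in drought libraries, again with every infested drought library below every infested control library.

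Between these patterns, 12 members had uninfested drought plants part of the way up. comp822_c0_seq1 (634 bases) held 257, 239 and 259.5 CPM in uninfested control, 467, 699.7 and 573 in infested control, 261, 418 and 376 in uninfested drought and 295, 376 and 674 in infested drought libraries. All 3 uninfested drought libraries were above the uninfested control ones, replicate 1 by little, and below all infested control ones. comp956_c0_seq1 (1950 bases) varied little between libraries of a group, at 105 ± 16.1, 228 ± 30.4, 152 ± 22.7 and 182 ± 9.27 CPM in the same order (SD, n = 3 each). comp8772_c0_seq1 (588 bases) stood at 90.5 ± 41.5, 200.2 ± 25.1, 128 ± 58.5 and 157 ± 65.8 CPM, with all 3 infested drought libraries inside or above the range of the uninfested control ones (77.2, 57.2 and 137 CPM).

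Drought was then compared with control over infested and uninfested plants together, with edgeR fitted to all 20170 tested contigs and p adjusted over all of them. The rule used the difference between infested and uninfested plants of a water treatment and this comparison uses their average, so on the log scale they are separate quantities where group sizes and spreads are equal. Over all tested contigs the median within-group SD was 0.168 in both drought groups, but over members it was 0.50 without and 0.37 with insects. With the wider spread in uninfested drought libraries, choice by a small drought difference favours a high drought average. In control plants the members' spread was wider with insects (0.43) than without (0.31), so choice by a large control difference favours a high control average. On drought minus control these act in opposite directions. The counts below, including those with flooding, are therefore not free of the rule. The left-out libraries described further on give this average where the rule did not use it, but for contigs chosen anew and not for the 83 members. The average was called higher in drought plants for 47 of 83 members (56.6%, background 9.81%) and called lower for 3 (background 12.5%). The median log2 fold change was 0.98 over members and 0.01 over all tested contigs. It was positive in 71 members, called or not, beside 10305 of the 20170 tested contigs. The 2 parts of the average were unequal. In log2(CPM + 1), drought minus control had a median of 1.497 without insects and was positive in 78 members, beside 12979 tested contigs. With insects the median was 0.25, and 53 members were positive, beside 12111 tested contigs. Among the 47 that rose, the log2 fold change ran from 0.65 to 3.56, and 38 rose at least 2-fold. Of the 221 contigs induced in all 3 water treatments 22.2% rose, and of the 219 with an intermediate drought difference 25.6% rose. These shares are given side by side and were not compared by a test.

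All 47 members that rose belonged to the 62 near or above the infested control level. Both the division and the averaged comparison use uninfested drought minus uninfested control, so this overlap was largely fixed in advance. The largest rise was that of comp23535_c0_seq1 (575 bases), from 0.128, 0.311 and 0.454 CPM in uninfested control and 3.23, 10.0 and 0.786 in infested control libraries to 28.5, 9.49 and 7.72 in uninfested and 18.6, 8.35 and 21.8 in infested drought libraries. The edgeR estimate was 3.56 ± 0.87 on the log2 scale (SE), with adjusted p = 0.00927. All drought libraries were above the uninfested control ones, and the infested groups overlapped through infested control replicate 2. comp20964_c0_seq1 (551 bases) gave the same picture with less scatter, at 1.15, 0.934 and 2.66 and 4.73, 7.55 and 3.64 CPM in control libraries and 24.1, 17.6 and 14.4 and 16.5, 12.3 and 24.5 in drought libraries. Every drought library was above every control library, infested or not, and edgeR estimated 2.54 ± 0.29 on the log2 scale (SE, adjusted p = 4.15e-05).

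The next largest rises leaned on uninfested drought replicate 1. By edgeR, the value for comp7122_c0_seq1 was 3.29 ± 0.86 (SE, adjusted p = 0.0136) on the log2 scale, and 1.37 without that library (adjusted p = 0.0111). For comp11297_c0_seq1 it was 2.66 ± 0.65 (adjusted p = 0.00944) and 1.59 without it (adjusted p = 0.0109). For comp31198_c0_seq1 it was 2.84 ± 0.79 (adjusted p = 0.0186) and 1.49 without it, where the call was lost (adjusted p = 0.0538). These 3 members kept a positive value in every alternative tried. Without the 6 libraries numbered 3, which leaves 2 libraries per group, comp23535_c0_seq1, comp7122_c0_seq1 and comp31198_c0_seq1 kept values of 3.53, 3.35 and 3.07 but were not called (adjusted p = 0.0802, 0.0666 and 0.0513).

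Among abundant members, comp16390_c0_seq1 rose with drought by 1.27 ± 0.31 on the log2 scale (SE, adjusted p = 0.00937 by edgeR), comp15905_c0_seq1 by 1.47 ± 0.30 (adjusted p = 0.00297), comp1295_c0_seq1 by 0.87 ± 0.14 (adjusted p = 0.00048) and comp299_c0_seq1 by 0.83 ± 0.18 (adjusted p = 0.00438). These calls held without each of the 18 libraries. In log2(CPM + 1), these members were higher in drought than control plants by 2.44, 2.595, 1.37 and 1.43 without insects. With insects the differences were smaller, at 0.26, 0.41, 0.55 and 0.49. comp524_c0_seq1 missed the threshold at 1.07 ± 0.37 (adjusted p = 0.0524), and comp4886_c0_seq1 and comp15076_c0_seq1 were further from it, at 0.74 ± 0.45 and 0.56 ± 0.43 (adjusted p = 0.264 and 0.393). comp1254_c0_seq1, comp822_c0_seq1 and comp956_c0_seq1 had values of 0.47 ± 0.30, −0.06 ± 0.20 and 0.00 ± 0.12, none of them called.

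The 8 members with the widest gap between the control and the drought herbivory difference all rose on average. They were picked by values of the rule, and the gap and the average use the same drought and control libraries. Among all 83 members 47 rose (background 9.81%), and nothing is read from the 8. comp14719_c0_seq1 (1499 bases) held 8.93, 9.96 and 13.2 and 53.5, 73.3 and 24.3 CPM in control libraries and 188, 74.0 and 83.5 and 126, 67.4 and 129 in drought libraries, which edgeR put at 2.16 ± 0.37 on the log2 scale (SE, adjusted p = 0.00102). comp19759_c0_seq1, comp130_c0_seq1 and comp27011_c0_seq1 (1241 bases) rose by 2.66 ± 0.56, 2.54 ± 0.58 and 2.29 ± 0.50. For comp4490_c0_seq1 (1917 bases), at 16.4, 35.8 and 30.3 CPM in uninfested drought against 2.93, 4.17 and 2.85 in uninfested control libraries, the value was 1.48 ± 0.42 (adjusted p = 0.02), and the call was lost without uninfested control replicate 3 (1.41, adjusted p = 0.0526) and without the 6 libraries numbered 3 (1.14, adjusted p = 0.2).

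The 3 members that fell with drought were all among the 9 near the uninfested control level, an overlap also largely fixed by the division. On the log2 scale comp2872_c0_seq1 had a value of −1.32 ± 0.35 (SE, adjusted p = 0.0137 by edgeR) and comp24281_c0_seq1 one of −0.83 ± 0.22 (adjusted p = 0.0134), and both calls held without each single library. comp2872_c0_seq1 was not called without the 6 libraries numbered 3 (−0.84, adjusted p = 0.209). comp5298_c0_seq1, at −1.20 ± 0.37 (adjusted p = 0.0302), lost its call without infested control replicate 3, uninfested control replicate 1 or 2, infested drought replicate 1 or 2, or uninfested drought replicate 2, with values from −1.18 to −1.06 and adjusted p from 0.0628 to 0.0740. The number of members that rose was 37 without uninfested drought replicate 1 and 30 without the 6 libraries numbered 3.

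**Figure D4:**
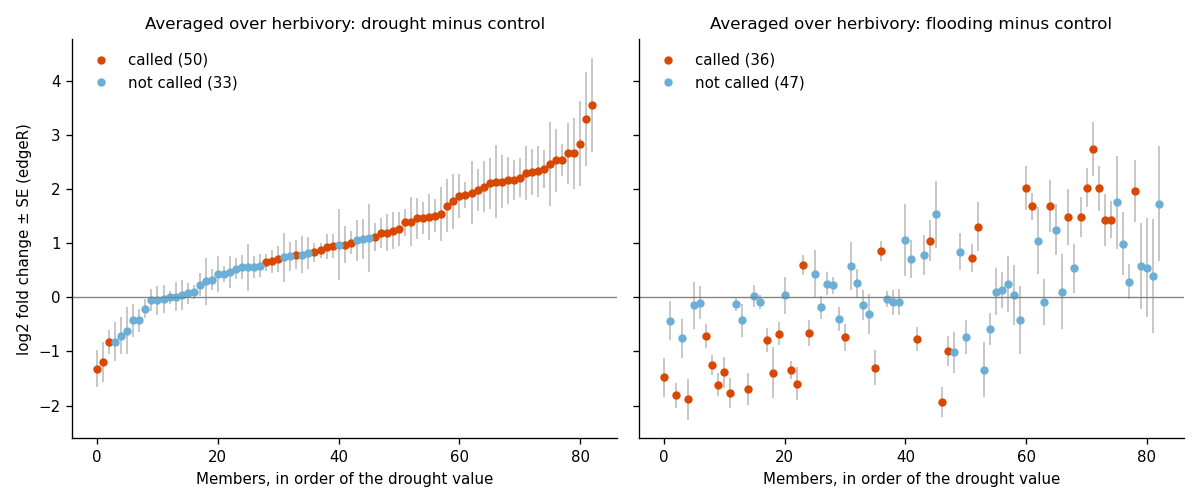
Log2 fold change ± SE (edgeR) of the 83 members for drought minus control (left) and flooding minus control (right), averaged over infested and uninfested plants, with members in order of the drought value on both x axes and called members in orange. Most members are positive on the left (47 rose and 3 fell, or 56.6% and 3.61%, background 9.81% and 12.5%). The right panel shows members on both sides of 0 (16 rose and 20 fell, or 19.3% and 24.1%, near the background of 14.6% and 17.4%).

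For flooding against control, members went both ways, at shares near those of all tested contigs. The values for drought, which share the control libraries, were mostly one-sided. Averaged over herbivory, 16 members (19.3%) were called higher in flooded than in control plants (background 14.6%). Another 20 (24.1%) were called lower (background 17.4%), so both shares were near the background. The median log2 fold change was 0.03 over members and 0.01 over all tested contigs. Members that rose did so by 0.60 to 2.74, and members that fell by −0.66 to −1.94. Leaving out infested control replicate 3, uninfested flooding replicate 3 or uninfested control replicate 1 gave 10 that rose each time, and the number was 9 without infested flooding replicate 2, and 6 without the 6 libraries numbered 3.

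The largest rise with flooding was that of comp27011_c0_seq1, which held 6.87, 7.34 and 15.3 CPM in uninfested and 27.5, 66.0 and 21.9 in infested flooding libraries, against 0.128, 1.56 and 1.10 and 8.19, 7.75 and 4.33 in control libraries. All flooding libraries were above all control libraries of the same herbivory state, and the edgeR estimate was 2.74 ± 0.49 on the log2 scale (SE, adjusted p = 0.000813). comp11865_c0_seq1 (1159 bases) rose from 15.7, 24.2 and 18.0 CPM in uninfested control to 88.5, 136 and 59.1 in uninfested flooding and 224, 156 and 107 in uninfested drought libraries. Its averaged log2 fold change was 2.03 ± 0.36 for flooding and 2.21 ± 0.36 for drought (SE, adjusted p = 0.000679 and 0.000679). comp5718_c0_seq1 (1256 bases) and comp12684_c0_seq1 (1535 bases) were high under both water treatments, at 2.02 ± 0.41 and 2.01 ± 0.42 for flooding and 1.87 ± 0.41 and 2.32 ± 0.42 for drought, all 4 called. For flooding, comp299_c0_seq1 gave 0.85 ± 0.18 (adjusted p = 0.00237) and comp14719_c0_seq1 1.48 ± 0.37 (adjusted p = 0.00678). comp19759_c0_seq1 gave 1.97 ± 0.57 (adjusted p = 0.0174), and its call was lost without infested flooding replicate 2 (1.63, adjusted p = 0.0522). The flooding value of comp524_c0_seq1, 1.05 ± 0.37, was called (adjusted p = 0.0444) but lost in 15 of 26 alternatives, with 0.68 the lowest value. Without the 6 libraries numbered 3, comp14719_c0_seq1 and comp19759_c0_seq1 were not called for flooding (1.32 and 2.03, adjusted p = 0.0543 and 0.0597).

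The 8 named members that fell with flooding had lower means than control plants both without and with insects. comp417_c0_seq1 (2113 bases) stood at 4.67, 4.26 and 6.83 CPM in uninfested flooding libraries, below all uninfested control libraries (19.8, 40.1 and 45.7), and at 82.9, 49.3 and 87.6 in infested flooding libraries, below all infested control libraries (166, 113 and 129). In drought libraries it stood at 88.4, 136 and 229.8 CPM without insects and 117, 142 and 258 with them, so that, on average, it was lower than control in flooded plants and higher in drought plants. Its averaged log2 fold changes were −1.94 ± 0.28 for flooding and 1.11 ± 0.26 for drought (SE, edgeR adjusted p = 0.000159 and 0.00704), and the drought call was lost without the 6 libraries numbered 3 (0.81, adjusted p = 0.0695). comp8772_c0_seq1 fell by −1.77 ± 0.27 with 17.3, 13.6 and 25.1 CPM in uninfested flooding libraries, comp822_c0_seq1 by −1.61 ± 0.21 with 72.5, 75.6 and 79.0, and comp1254_c0_seq1 by −1.59 ± 0.31 with 41.9, 33.8 and 92.1 (adjusted p = 0.000245, 4.86e-05 and 0.00123). In all 3 every uninfested flooding library was below every uninfested control library. comp24281_c0_seq1 and comp19785_c0_seq1 (935 bases), of the 9 low members, fell with flooding by −1.81 ± 0.24 and −1.89 ± 0.38 (adjusted p = 4.71e-05 and 0.00151), and comp2872_c0_seq1 by −1.48 ± 0.36 (adjusted p = 0.0055), the last not called without the 6 libraries numbered 3 (−1.41, adjusted p = 0.0505). comp2035_c0_seq1 (1065 bases), close to the control limit of the rule, fell by −1.34 ± 0.16 (adjusted p = 2.22e-05).

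The direct comparison of the water treatments, drought minus flooding averaged over herbivory, called 35 members higher in drought plants (background 6.51%) and 0 lower (background 4.39%). At an unadjusted p under 0.05, 0 members were lower by edgeR and 1 by DESeq2, which also called 0, and 10 members had a negative value. The median log2 fold change was 0.93 over members and −0.01 over all tested contigs. Among the 221 contigs induced in all water treatments 35.7% were called higher in drought plants, beside 42.2% of members, and 1 was called lower. Of the 219 with an intermediate drought difference 33.3% were called higher and 0 lower. No test compared these shares. The largest value was that of comp417_c0_seq1, 3.05 ± 0.29 (SE, edgeR adjusted p = 3.37e-05), and high values were also those of comp28723_c0_seq1 (621 bases) with 2.79 ± 0.45 (adjusted p = 0.000897) and comp20964_c0_seq1 with 2.25 ± 0.29 (adjusted p = 0.000211). comp28723_c0_seq1 was low throughout, with 3.90, 3.35 and 2.72 CPM in uninfested drought and 0.176, 0.158 and 0.0823 in uninfested flooding libraries. The value of comp7122_c0_seq1, second in size at 2.90 ± 0.84 (adjusted p = 0.0384), lost its call in 18 of 26 alternatives and was 0.98 without uninfested drought replicate 1. Among abundant members, comp16390_c0_seq1, comp15905_c0_seq1, comp1254_c0_seq1, comp822_c0_seq1 and comp1295_c0_seq1 were higher in drought plants by 2.00 ± 0.32, 2.04 ± 0.30, 2.07 ± 0.31, 1.55 ± 0.21 and 0.90 ± 0.14, with adjusted p between 0.000277 and 0.00115.

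Because the members were selected on these same libraries, the rule was also applied to 2 replicate numbers of every group and the third set of 6 libraries was read afterwards, as a description. With the libraries numbered 1 left out, 56 contigs were chosen, and in the left-out libraries their median herbivory difference was 1.34 in control, 0.35 in drought and 1.42 in flooded plants. With those numbered 2 left out, 46 contigs were chosen, and the left-out medians were 1.40, 0.29 and 1.82. In these cases the drought difference was below the control difference for 49 of 56 and 41 of 46 contigs. Uninfested drought was above uninfested control for 50 of 56 (89.3%) and 40 of 46 (87.0%), by medians of 1.18 and 1.16. Of all tested contigs, 61.2% and 61.7% were above. Infested drought was above infested control for 53.6% and 60.9% of the chosen contigs (51.9% and 53.1% of all tested), by medians of 0.10 and 0.11. With the libraries numbered 3 left out, 207 contigs were chosen, and the pattern was not seen in the libraries numbered 3. Their medians were 0.48 in control, 0.80 in drought and 0.45 in flooded plants, and the drought difference was below the control difference for 79 of 207 contigs. Uninfested drought was above uninfested control for 146 of the 207 (70.5%, and 58.2% of all tested contigs in these libraries), by a median of 0.42. Infested drought was above infested control for 170 (82.1%, and 64.0% of all tested contigs), by a median of 0.65. Uninfested drought minus infested control had left-out medians of −0.24, −0.23 and −0.17 for the numbers 1, 2 and 3. The drought minus control value averaged over herbivory had left-out medians of 0.79, 0.67 and 0.53, beside 0.09, 0.08 and 0.11 over all tested contigs. It was positive for 76.8%, 91.3% and 80.2% of the chosen contigs, and for 61.1%, 60.4% and 63.5% of all tested contigs. All limits of the rule were met again in the left-out libraries by 15 of 56, 20 of 46 and 2 of 207 contigs.

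**Figure D5:**
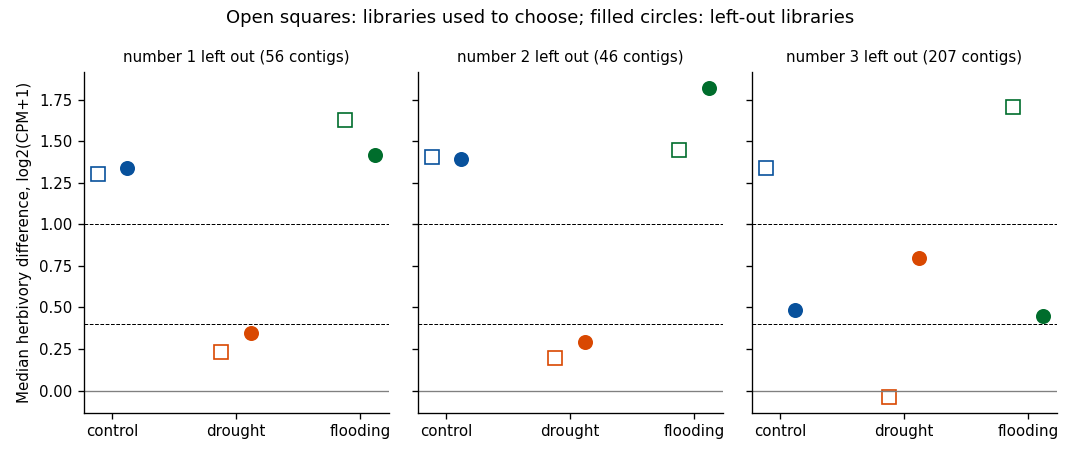
Median herbivory difference in log2(CPM + 1) (y) in control, drought and flooded plants (x) for contigs chosen by the rule on 2 replicate numbers (open squares) and read in the left-out number (filled circles), with the limits of 1 and 0.4 dashed. The left-out drought median is the lowest of the 3 when number 1 or 2 is left out (0.35 and 0.29), and the highest when number 3 is left out (0.80).

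The members had a median length of 968 bases (535 to 3511), beside 1208 over all tested contigs, and a median level of 17.4 CPM (2.04 to 808), beside 15.1. From assembly components with several contigs, where reads of near-identical copies could be divided, came 1 member (1.2%), beside 1.15% of all contigs. Values of members were spread more widely between libraries of a group than those of all tested contigs, as were those of the other induced contigs. The median within-group SD of log2(CPM + 1) over members was 0.31 and 0.43 in uninfested and infested control, 0.50 and 0.37 in drought, and 0.48 and 0.52 in flooded plants, while over all tested contigs it lay between 0.165 and 0.206. Over the 221 contigs induced in all 3 water treatments it lay between 0.318 and 0.416. Over the 219 with an intermediate drought difference it lay between 0.216 and 0.373. Membership moved with single libraries: 13 members were chosen without each of the 18 libraries in turn, and the least stable member in 9 of the 18. Without uninfested drought replicate 1 the rule chose 54 contigs, of which 41 were among the 83.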

How the data were processed

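Leaf RNA-seq libraries of 18 samples in 6 groups were used, with groups and replicate numbers from the sample titles and table columns tied to samples through the column numbers in the labels. The deposited raw table held read counts per contig. A normalized signal per contig, which the authors deposited after removing noise contigs, per the file title, served only as an alternative (limma 3.58.1). Contig length was used only to describe members. Bowtie 0.12.7 and DESeq are named in the submitters' processing notes. How the contigs were assembled and counted, and whether strand was used, are not stated in the sources used here.

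CPM was the count divided by the library's total. Contigs were tested on counts with edgeR 4.0.16 in R 4.3.3: filterByExpr (minimum count 10, minimum total 15), TMM scaling and a robust quasi-likelihood model of 6 group means on 18 libraries (12 residual degrees of freedom, common biological coefficient of variation 18.6%). A contig was called, and is said to have risen or fallen, at a Benjamini-Hochberg adjusted p under 0.05 over 20170 contigs. All adjusted p-values of single contigs are from this test, and each SE is the size of the log2 fold change over the square root of F. The procedure was tried on simulated counts with the same dispersion in all contigs and groups. That does not cover contigs spread as widely as the members. Of the 3 averaged water comparisons, those against control share the control libraries. The members and lists were chosen with earlier results of these data known. Named contigs are the 10 most abundant members, the 8 with the widest gap between control and drought differences, up to 4 called members with the largest rise and fall per averaged comparison, and the contigs nearest each limit of the rule, 1 inside and 1 outside. Gene lists were not used, since contigs carry no gene names.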

Additional observations from a re-analysis of the deposited data

How the results depend on the processing

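The number of members followed the limits of the rule: 47 with a drought limit of 0.2, 130 with 0.6, 162 with an induction limit of 0.8 and 49 with 1.2. It ran from 54 to 107 when single libraries were left out, and from 63 to 93 with other pseudocounts, TMM scaling or a CPM minimum of 1 or 5. For members of the 83 called higher in drought than control plants on average, the count ran from 36 to 53 without single libraries (47 with all). It was 54 with DESeq2. For those called lower it ran from 2 to 4 (3 with all). For flooding against control, the count of members that rose ran from 9 to 20 (16 with all) and of those that fell from 17 to 22 (20 with all). For drought against flooding it ran from 28 to 39 (35 with all), with 0 lower throughout. Without the 6 libraries numbered 3, chosen after seeing the data, 30 members rose with drought and 6 with flooding, and the cause was not tested. With a replicate block the counts were 43 called higher and 3 called lower for drought, 13 and 20 for flooding, and 33 and 0 for drought against flooding. What the numbers stand for is not stated. Of 45 same-numbered pairs, 10 correlated above 0.1 (−0.32 to 0.39), and all 3 pairs did so in 1 of 15 combinations of groups, infested drought with uninfested flooding, where every library also correlated best with its own number. Of 54 calls on named contigs, 38 held under every alternative, 16 were lost under at least 1, and 0 reversed.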
